A study of Homo sapiens with 19 samples.

Results

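The regions described here are superenhancers of MDA-MB-231 cells that meet no superenhancer of MDA-MB-436 cells. Both are established lines of human triple-negative breast cancer, which lacks hormone receptors and HER2 amplification. Starting from the authors' lists for the clone 231-D and its parent 231Pa, a region was kept when it overlapped none of the 537 regions listed for MDA-MB-436 by 1 bp or more. The members were thus chosen by their H3K27ac calls in both lines. This left 350 of 566 regions (61.8%), which cover 35.8 of 62.9 Mb. They fall into the authors' 3 classes, with 134 regions listed for 231-D and not 231Pa (231-D-specific), 79 listed as common to both, and 137 listed for 231Pa and not 231-D (231Pa-specific). No region of one class overlaps a region of another.

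The series holds 19 ChIP-seq samples, and the lists used here rest on 8 H3K27ac and 2 OCT-2 samples, with 2 replicates a group. 231-D is a highly metastatic clone of MDA-MB-231 that carries luciferase, and 231Pa is the parental line with no transgene, so clone and transgene cannot be told apart. MDA-MB-436_Luc2_No3a is a polyclonal ex vivo culture of a xenograft and MDA-MB-436_Luc2 is its parent, both with luciferase. OCT-2 was precipitated from 231-D, whose OCT-2 samples are additionally labelled polyclonal with a stable transgene, and luciferase is the only transgene named. The MDA-MB-436 cells were grown in RPMI medium, while the protocols used here do not give the medium of 231-D and 231Pa. The lists of the lines also carry different dates, so line, medium and date of the work cannot be told apart.

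Acetylation of lysine 27 on histone H3 marks active enhancers and promoters, and a superenhancer is a broad stretch in which such marked elements lie close together. Superenhancers are known for sitting at genes that define a cell's identity or, in cancer, its oncogenic state, so they differ between cell types. OCT-2, the product of POU2F2, is a POU-domain transcription factor best known from B lymphocytes that binds octamer elements. The lists give positions and no read depth or signal, so a region that is absent from a list may still be acetylated below the authors' threshold. Regions are given in hg19 by chromosome arm. No gene is assigned to them, as the annotation at hand is of another build, and cell type markers could not be looked at in lists of positions.

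The 231Pa-specific class was the one least often met by MDA-MB-436. Of the 231-D-specific regions, 134 of 225 (59.6%, exact 95% interval 52.8 to 66.0%) were restricted to MDA-MB-231. Of the common regions, 79 of 183 (43.2%, 35.9 to 50.7%) were restricted. Of the 231Pa-specific regions, 137 of 158 (86.7%, 80.4 to 91.6%) were restricted. The intervals of these 3 shares cover counting error over regions only. Because the overlap with MDA-MB-436 is the rule itself, the shares are a description and were not tested. By sequence covered, 231-D-specific, common and 231Pa-specific regions made up 10.2, 10.9 and 14.7 Mb of the restricted set.

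Width bears on the rule, since a wider region has more room to meet another. Of the MDA-MB-231 regions of the narrowest quartile (11.7 to 62.3 kb) 72.5% were restricted, and of the widest quartile (139 to 508 kb) 53.5%. The order of the classes was the same in each width quartile. Within the 4 width quartiles, the restricted share of 231-D-specific regions lay between 43.5 and 64.3% and that of common regions between 38.8 and 63.2%. The share of 231Pa-specific regions lay between 80.5 and 94.9% and was the highest in each quartile.

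**Figure D1:**
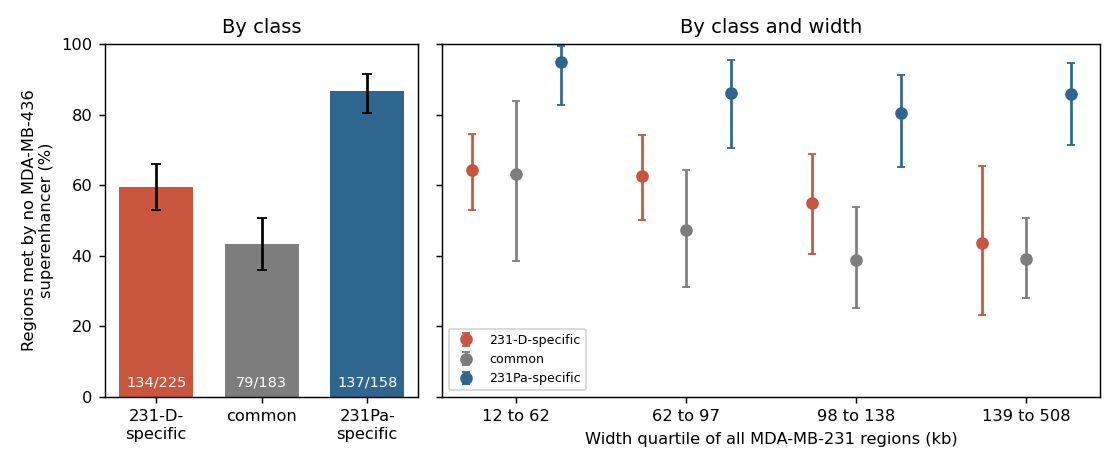
Share of superenhancers met by no MDA-MB-436 superenhancer, in percent, by class (left; counts are printed in the bars) and by class within quartiles of width in kb (right). Bars and points are shares and lines are exact 95% intervals over regions; the 231Pa-specific share of 86.7% lies above 59.6% for 231-D-specific and 43.2% for common regions, and is the highest in each quartile.

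Most regions outside the restricted set were met by superenhancers that MDA-MB-436_Luc2_No3a and MDA-MB-436_Luc2 have in common. Of 324 such regions, at least 1 met 74 of 225 231-D-specific regions (32.9%), 83 of 183 common ones (45.4%) and 12 of 158 231Pa-specific ones (7.59%). The 116 regions specific to MDA-MB-436_Luc2_No3a met 4.44, 6.56 and 1.90% of 231-D-specific, common and 231Pa-specific regions. The 97 specific to MDA-MB-436_Luc2 met 3.56, 7.10 and 3.80% of them in the same order.

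Restricted regions were spread over a wide range of distances from the nearest MDA-MB-436 superenhancer on the same chromosome. The median distance was 3.02 Mb, with quartiles of 0.904 and 7.31 Mb. Of the 350 regions, 97 (27.7%) lay within 1 Mb, 16 within 100 kb and 8 within 50 kb of one, and 50 (14.3%) lay more than 10 Mb away. The medians of the classes were 3.26 Mb for 231-D-specific, 3.17 Mb for common and 2.80 Mb for 231Pa-specific regions. The members just inside the rule were a 231Pa-specific region of 48.9 kb (chr2:109921268-109970198), at 19.0 kb from an MDA-MB-436 region, a 231-D-specific one on 17q at 28.2 kb and a 231Pa-specific one on 7q at 32.6 kb. Just outside it, the smallest overlap was 9.82 kb, at a 231-D-specific region of 18.5 kb (chr14:105483017-105501486), which is 53.2% of its width. The next were 11.7 kb at a 231-D-specific region on 19q and 13.4 kb at a common region on 14q.

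The 231-D-specific members were the narrowest class. Restricted 231-D-specific regions had a median width of 72.5 kb (quartiles 40.6 and 105 kb, range 11.7 to 186 kb, n = 134). Restricted common regions had a median of 115 kb (quartiles 81.4 and 182 kb, range 19.6 to 506 kb, n = 79). Restricted 231Pa-specific regions had a median of 98.5 kb (quartiles 60.8 and 139 kb, range 22.0 to 274 kb, n = 137). Under 50 kb lay 44 of the 231-D-specific, 9 of the common and 20 of the 231Pa-specific members, and over 200 kb lay 0, 16 and 10 of them. Over all regions of these classes, 63 of 225, 12 of 183 and 21 of 158 lay under 50 kb, and 2, 40 and 12 over 200 kb. Regions met by MDA-MB-436 had the same order of classes, with medians of 83.0, 133 and 108 kb. Each common region is a union of calls, with 2 in 78 regions and 4 in 1, which widens it by construction. Restricted regions as a whole had a median of 88.8 kb, against 107 kb for the 216 met by MDA-MB-436, and the rule favours narrow ones, so no test was made.

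**Figure D2:**
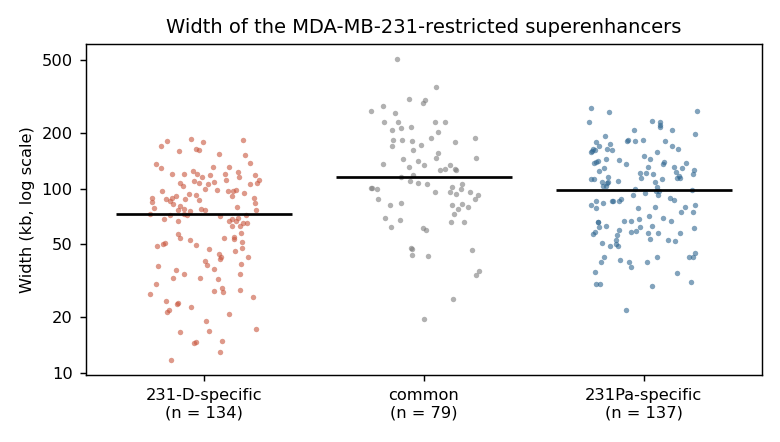
Width in kb (log scale) of each of the 350 restricted superenhancers by class. Points are regions, spread sideways for visibility, and lines are medians of 72.5 kb for 231-D-specific, 115 kb for common and 98.5 kb for 231Pa-specific regions; the classes overlap widely.

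The widest members of each class are given here with their OCT-2 peaks. The widest common region (chrX:12947256-13453005) was 506 kb, held 1 OCT-2 peak and lay 26.5 Mb from an MDA-MB-436 superenhancer. The next were of 358 kb on 11p (chr11:11953084-12311038), the union of 4 calls, and of 308 kb on 11q (chr11:86166149-86473970), with 0 OCT-2 peaks each. The widest 231-D-specific regions were of 186 kb on 16q (chr16:81434361-81620176), 183 kb on 5q (chr5:72832385-73015517) and 181 kb on 10q (chr10:129687212-129868654), of which the 5q region held 1 OCT-2 peak. The widest 231Pa-specific regions were of 274 kb on 4q (chr4:77431390-77705524), 263 kb on 14q (chr14:54552208-54814850) and 261 kb on 1p (chr1:115655393-115916845), of which the 14q region held 1 OCT-2 peak.

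Restricted regions lay on 39 of the 41 chromosome arms that hold any MDA-MB-231 superenhancer. The arms with most of them were 5q with 27 of 37 regions, 6p with 23 of 29 and 1p with 21 of 38. These 3 arms held 71 members (20.3%) and 104 of all 566 regions (18.4%). Long arms held 61.1% of members and 64.1% of all regions. All regions of the X chromosome (10 of 10), of chromosome 13 (3 of 3) and of 20p (5 of 5) were restricted, although the MDA-MB-436 lists hold 8 regions on X and 7 on chromosome 13. On chromosome 14, 19 of 24 regions were restricted, and MDA-MB-436 had 9 regions there. On chromosome 1, 34 of 72 were restricted beside 77 MDA-MB-436 regions, and on chromosome 19, 4 of 11 beside 22. None of the 5 regions of 19q and the 2 of 18p was restricted.

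The specific classes were unevenly placed on some chromosomes. Chromosome 2 held 2 restricted 231-D-specific and 16 restricted 231Pa-specific regions, out of 10 and 22 before the rule. Chromosome 5 held 16 restricted 231-D-specific and 6 restricted 231Pa-specific regions, out of 27 and 6. By arm, a surplus of 4 or more 231-D-specific members was found on 5q, with 14 231-D-specific and 6 231Pa-specific members (21 and 6 before the rule), on 14q with 10 and 3 (13 and 3) and on 12q with 6 and 2 (9 and 2). A surplus of 4 or more 231Pa-specific members was found on 2q, with 1 231-D-specific and 10 231Pa-specific members (6 and 14 before the rule), on 6p with 6 and 12 (6 and 14) and on 2p with 1 and 6 (4 and 8). The others were 4p with 0 and 4 (1 and 4), 8q with 2 and 6 (3 and 6) and 20p with 0 and 4 (0 and 4). Over the 41 arms, 231-D-specific members were more numerous on 19, 231Pa-specific ones on 16, and both were equal on 6. Neighbouring regions are not independent and DNA copy number is not in the lists, so these counts were not tested and the part of copy number was not tested.

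**Figure D3:**
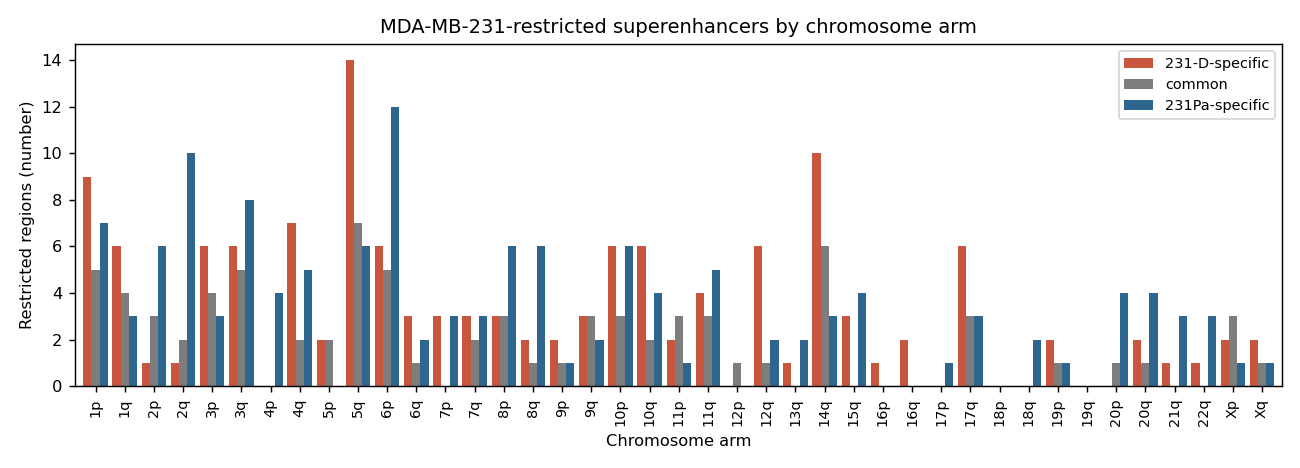
Number of restricted superenhancers on each chromosome arm, with 231-D-specific, common and 231Pa-specific regions as bars from left to right. On 5q and 14q 231-D-specific regions (14 and 10) outnumber 231Pa-specific ones (6 and 3), and on 2q and 6p they are fewer (1 and 6, against 10 and 12).

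Neighbouring superenhancers are of interest because they can belong to the same broad regulatory domain. Of the 350 restricted regions, 126 (36.0%, exact 95% interval 31.0 to 41.3%) had another restricted region within 500 kb. The same count over all MDA-MB-231 regions was 232 of 566 (41.0%), a set with more regions on the same chromosomes and therefore more chances of a neighbour. Within 100 kb the counts were 61 of 350 (17.4%) for members and 19.3% for all regions, and within 1 Mb 152 of 350 (43.4%) and 53.7%. By class, 45 of 134 231-D-specific (33.6%), 35 of 79 common (44.3%) and 46 of 137 231Pa-specific members (33.6%) had a restricted neighbour within 500 kb. Over all regions of these classes, 86 of 225 (38.2%), 82 of 183 (44.8%) and 64 of 158 (40.5%) had any MDA-MB-231 neighbour within 500 kb. The closest neighbours lay 22.9 kb apart.

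The 126 clustered members formed 55 runs, 43 of them with 2 members, 9 with 3, 2 with 4 and 1 with 5. Specific regions of both kinds met in 12 runs, 20 runs held 231-D-specific regions without 231Pa-specific ones, 18 held 231Pa-specific without 231-D-specific ones, and 5 held common regions alone. Among the 71 pairs of adjacent members within 500 kb, 12 joined 231-D-specific with 231-D-specific regions, 15 joined 231Pa-specific with 231Pa-specific regions and 9 joined the one kind with the other. Over all MDA-MB-231 regions the corresponding numbers were 23, 17 and 15 of 135 pairs.

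The run with most members lay on 2p (chr2:27885743-29354516), with 4 231Pa-specific regions around 1 common region of 231 kb, spanning 1469 kb. It held 0 OCT-2 peaks, and its members lay 7034 kb or more from any MDA-MB-436 superenhancer. Of the 2 runs with 4 members, the wider lay on 5q (chr5:95041372-96045884), with 3 231-D-specific regions of 76.8, 47.7 and 99.6 kb followed by a 231Pa-specific region of 137 kb. It held 3 OCT-2 peaks, of which 2 were in the first 231-D-specific region and 1 in the 231Pa-specific region. The narrower lay on Xp (chrX:45288219-46194956), with 2 common, 1 231-D-specific and 1 231Pa-specific region and 0 OCT-2 peaks.

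**Figure D4:**
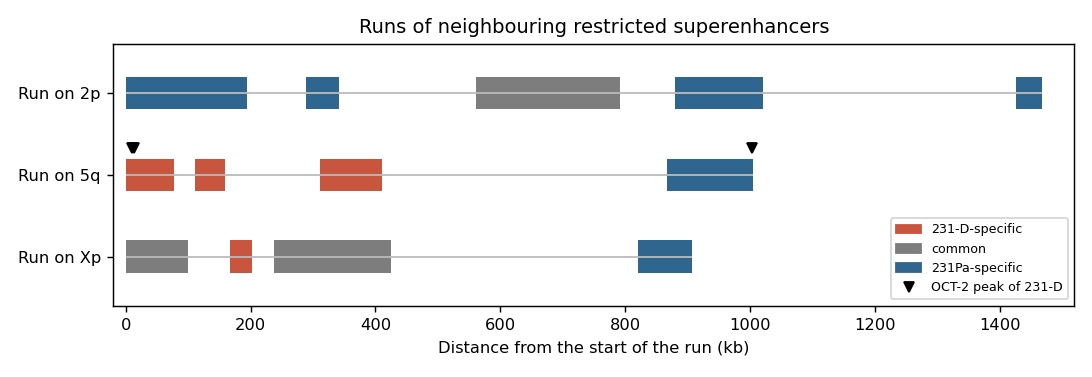
The 3 runs with most restricted superenhancers within 500 kb of each other, drawn to scale in kb from the start of each run. Blocks are superenhancers coloured by class and triangles are OCT-2 peaks of 231-D; the run on 2p is mostly 231Pa-specific with 0 peaks, that on 5q mostly 231-D-specific with 3 peaks, and that on Xp mixed with 0 peaks.

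Binding of OCT-2 in 231-D is an assay that the rule did not use, and the question was whether restricted regions hold its peaks more or less often. They were not shown to differ from the other MDA-MB-231 superenhancers. At least 1 OCT-2 peak lay in 73 of 350 restricted regions (20.9%, exact 95% interval 16.7 to 25.5%) and in 57 of 216 regions met by MDA-MB-436 (26.4%, 20.6 to 32.8%), against 23.0% of all 566. With regions compared within 4 width quartiles, the odds ratio was 0.80 (95% interval 0.52 to 1.23, two-sided exact conditional Mantel-Haenszel test, adjusted p = 0.30 over 3 OCT-2 tests). The density was 2.35 peaks per Mb in restricted regions and 2.62 per Mb in the others. By class the shares did not all lean the same way, with 25.4% of restricted and 18.7% of other 231-D-specific regions, 24.1% and 35.6% of common regions, and 14.6% and 14.3% of 231Pa-specific regions. Without the common class the odds ratio was 1.16 (same exact test, adjusted p = 0.67).

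Within the restricted set, OCT-2 peaks were more frequent in 231-D-specific than in 231Pa-specific regions of similar width. A peak lay in 34 of 134 231-D-specific members (25.4%, interval 18.3 to 33.6%), in 19 of 79 common members (24.1%, 15.1 to 35.0%) and in 20 of 137 231Pa-specific members (14.6%, 9.15 to 21.6%). Within width quartiles the odds ratio of 231-D-specific against 231Pa-specific members was 2.88 (95% interval 1.40 to 6.20, two-sided exact conditional Mantel-Haenszel test, adjusted p = 0.0062). The share was higher in 231-D-specific members in each of the 4 quartiles, at 22.2 and 13.5% in the narrowest, 16.7 and 3.23% in the second, 35.7 and 12.1% in the third and 50.0 and 27.8% in the widest, where only 10 regions were 231-D-specific. Without regard to width the odds ratio was 1.98 and did not pass the threshold (interval 1.04 to 3.88, Fisher's exact test, adjusted p = 0.099). The 2 chromosomes with the most uneven classes also had uneven peaks: 1 of 23 members on chromosome 2 and 13 of 31 on chromosome 5 held one. Without both, an alternative chosen after seeing the data, the odds ratio was 2.05 and did not pass (same exact test, adjusted p = 0.16), with 26 of 116 231-D-specific members (22.4%) and 19 of 115 231Pa-specific members (16.5%) holding a peak.

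Common members were not shown to differ from 231Pa-specific ones in this respect (odds ratio 1.70, interval 0.77 to 3.73, two-sided exact conditional Mantel-Haenszel test, adjusted p = 0.28). This call depends on the rule: where an MDA-MB-436 region had to cover at least 50% of a region to remove it, the odds ratio was 2.35 (same exact test, adjusted p = 0.018). All p-values count regions as if independent, although 126 of 350 members had a restricted neighbour within 500 kb. The p-values may therefore be too small, and the spread between replicate libraries enters none of them. The series holds no OCT-2 sample of the parental 231Pa cells, so it is not known whether 231Pa has peaks of its own at the 231Pa-specific regions.

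**Figure D5:**
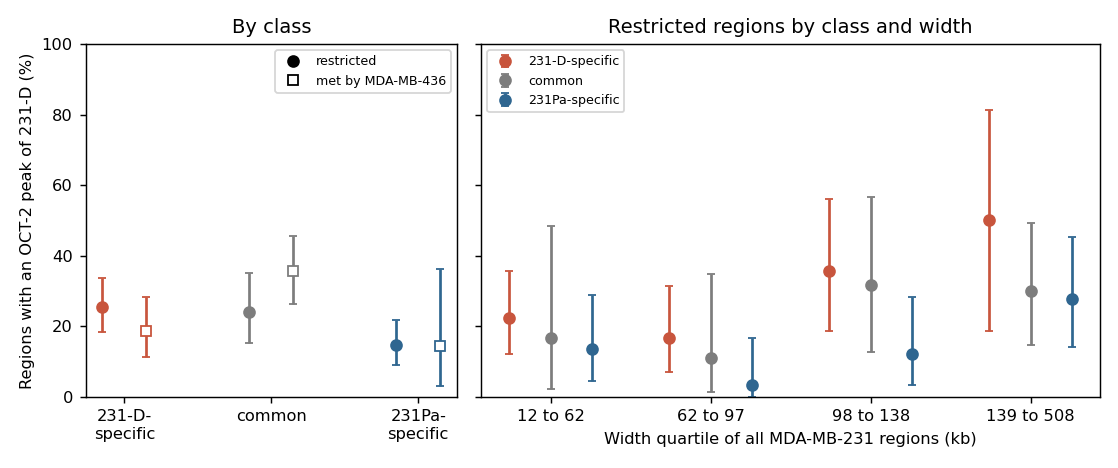
Share of superenhancers with an OCT-2 peak of 231-D, in percent, by class for restricted regions (filled circles) and regions met by MDA-MB-436 (open squares) (left), and for restricted regions by class within width quartiles in kb (right). Lines are exact 95% intervals over regions; among restricted regions the 231-D-specific share of 25.4% lies above the 231Pa-specific share of 14.6%, and it is higher in each of the 4 quartiles.

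The restricted regions held 84 of the 917 OCT-2 peaks of 231-D (9.16%), of which 38 lay in 231-D-specific, 24 in common and 22 in 231Pa-specific members. This is 3.74, 2.20 and 1.49 peaks per Mb. All 566 MDA-MB-231 regions together held 155 peaks (16.9%), at 3.171, 2.597 and 1.505 per Mb in the same order of classes. These 566 regions include the members. Regions met by MDA-MB-436 ranked otherwise, at 2.46, 2.86 and 1.57 peaks per Mb for 231-D-specific, common and 231Pa-specific regions. The difference in ranking was not tested. Most members with a peak had 1 (63 regions), 9 had 2 and 1 had 3. Members with a peak were wider, with a median of 110 kb, than the 277 without, with a median of 86.2 kb. The same held over all MDA-MB-231 regions, with medians of 120 and 92.3 kb. Of the 84 peaks, 51 (60.7%) lay closer to the centre of their region than to its end, where even placement would give 50%. A preference for the centre was not tested. The median distance to the nearer end was 28.1 kb. No further region gained a peak when all were extended by 10 kb, and 10 more members had a peak within 50 kb. Over all 566 regions the number with a peak rose from 130 to 144 within 50 kb. Members without a peak lay a median of 0.815 Mb from the nearest one.

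The member with the most OCT-2 peaks was a common region of 99.1 kb on 5p (chr5:33763143-33862276), with 3 peaks at 9.50, 65.0 and 80.8 kb from its start. The densest was a 231-D-specific region of 27.9 kb on 5q (chr5:73917564-73945448), whose 2 peaks lay 1.48 kb apart. In another 231-D-specific region on 5q, the first of the run at chr5:95041372-95118133, 2 peaks lay 2.46 kb apart. The other regions with 2 peaks had them 15.4 to 68.4 kb apart. They were 231-D-specific on 1p (chr1:98467448-98576809) and 3p (chr3:71031750-71211016), common on 1p, 3q and 9q (chr1:95043792-95274842, chr3:156798482-156894632 and chr9:97609387-97716033), and 231Pa-specific on 8q and 22q (chr22:37623820-37755614). Of these 10 regions, 3 lay on chromosome 5. That chromosome held 31 of the 350 members (8.86%) and 13 of the 73 members with a peak.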

How the data were processed

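Chromatin of 231-D and 231Pa (H3K27ac), MDA-MB-436_Luc2_No3a and MDA-MB-436_Luc2 (H3K27ac) and 231-D (OCT-2) was profiled by ChIP-seq with 2 replicates each. The authors deposited lists of regions made from both replicates, with start, end and a name that counts the calls merged into each. HOMER, bedtools, Bowtie and Bowtie2 (version 2.2.2.6) and the builds hg38 and hg19 stand in the submitters' processing notes with no role beside them; thresholds for calling are not given in the sources used here. Without counts or signal, depth and replicate spread are unknown.

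The lists of 231-D and 231Pa are hg19 by their names. The MDA-MB-436 lists name no build: 133 of their 1074 region ends lay within 1 kb of an end in the hg19 lists and 7 in the hg38 lists of MDA-MB-231 derivatives, so they were read as hg19. Positions are printed 1-based, and none was converted. Arms were split at centromere positions entered by hand to the nearest Mb; no region lay within 2.25 Mb of one. Shares have exact (Clopper-Pearson) 95% intervals for counting error only.

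OCT-2 shares were compared by two-sided exact conditional Mantel-Haenszel tests over regions in 4 width quartiles, with Benjamini-Hochberg adjustment over 3 tests and a threshold of 0.05. The tests and the overlap code were checked on simulated data and against bedtools. Alternatives changed the overlap that removes a region, the MDA-MB-436 lists, the peak window and the width strata. Regions named are the 3 widest of each class, those with 2 or more OCT-2 peaks, those nearest to the limit of the rule and the largest runs. The members, lists and tests were chosen with earlier results of these data known. Statistics used scipy 1.17.1 and numpy 2.4.6, tables pandas 2.3.3 and figures matplotlib 3.10.9, under Python 3.11.15.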

Additional observations from a re-analysis of the deposited data

How the results depend on the processing

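The number of restricted regions lay between 342 and 382 under 5 other overlap rules or list choices. Restricted shares lay between 57.8 and 64.0% for 231-D-specific and 84.8 and 90.7% for 231Pa-specific regions. For common regions the share was 54.1% where 50% of a region had to be covered and 52.6% at or under the median width; the cause was not tested. The odds ratio of 231-D-specific against 231Pa-specific members lay between 2.36 and 3.03 under 9 alternatives (exact conditional Mantel-Haenszel test, adjusted p 0.0038 to 0.041). Of these, a peak window of 10 kb and the use of the peak's middle returned the main result unchanged, so they add no support. Leaving out chromosome 2 or 5 alone, also chosen after seeing the data, kept the call. The odds ratio was 1.98 without width strata and 2.05 without both chromosomes, where it did not pass. For common against 231Pa-specific members it passed at 2.15 and 2.35 where 25 or 50% of a region had to be covered (adjusted p 0.049 and 0.018). For restricted against other regions it was 1.16 without the common class, in the other direction but under no setting past the threshold. Within 100 kb, 61 members had a restricted neighbour. No paired analysis was possible because the lists merge the replicates, and for the same reason leaving out a replicate, or a stricter peak score, could not be tried.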
